A study of Arabidopsis thaliana with 4 samples.

Results

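Trimethylation of lysine 4 of histone H3 (H3K4me3) was measured at the genes of the core cell cycle machinery of Arabidopsis roots: A, B and D type cyclins, cyclin-dependent kinases (CDKs) of classes A to D, the CDK inhibitors of the KRP family, and the MCM and ORC proteins that license replication origins. Members were the nuclear genes whose symbol or synonym in the TAIR10.1 annotation begins with CYCA, CYCB, CYCD, CDKA, CDKB, CDKC, CDKD, KRP, MCM or ORC followed by a number or a semicolon form. The letters matched 75 genes, of which 13 on chromosome 5 carried them only in the name of a sequencing clone (MCM23) and were set aside, so that 62 of 37899 nuclear genes remained. KRP4 (AT2G32710) is spelled differently in the annotation and was outside the rule. CUT&Tag, in which an antibody guides a transposase to the mark, was applied to Col-0 (wild type) roots of plants 10 days old. The 2 control libraries came from plants on normal medium and the 2 stress libraries from plants under osmotic stress with 250 mM sorbitol, a sugar alcohol that withdraws water from the cells. Whether the replicates are separate plantings is not given in the labels, so p-values measure only the spread between these libraries.

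Cyclins are the regulatory subunits of CDKs. D type cyclins link growth and hormone signals to the start of the cycle, in part by phosphorylation of the retinoblastoma protein, which releases E2F factors. A type cyclins act in S phase and up to mitosis and B type cyclins at the entry into mitosis, whereas KRP proteins bind and inhibit the kinases. Before S phase, the origin recognition complex (ORC) marks origins and helps to load the ring of MCM2 to MCM7, the replicative helicase. H3K4me3 lies around the start of transcribed genes. In plants the largest ORC subunit, ORC1, carries a domain that has been reported to bind this mark. In roots, cell division is concentrated in the meristem at the tip.

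Promoters of the replication genes and of the B type cyclins are shown first, because the same genes come back in the comparison with stress. The 250 bases before the annotated start of each gene were read from TAIR10.1 and searched on both strands for the E2F site (TTTCCCGC, TTTCGCGC, TTTGCCGC or TTTGGCGC) and for the core of the mitosis-specific activator (MSA) element (CAACGG or TAACGG), which R1R2R3 MYB factors bind. The 2 motifs do not overlap in their letters. The E2F site was in 6 of 9 MCM and 3 of 7 ORC promoters, and in 11 of 62 promoters of all members (17.7%), against 1.41% of 27443 protein-coding promoters. The MSA core was in 6 of 10 CYCB and 4 of 6 KRP promoters and in no MCM or CYCD promoter, which gave 17 of 62 (27.4%) against 10.8%. A match is a description of the letters and not a bound site. Of the E2F promoters, those of MCM2 (chr1:16969964-16970213, plus strand), MCM4 (chr2:7130730-7130979, minus strand) and MCM6 (chr5:18010668-18010917, minus strand) represent a gene whose H3K4me3 signal fell, one with a peak only under stress and one without a peak. The match is in capitals.
MCM2: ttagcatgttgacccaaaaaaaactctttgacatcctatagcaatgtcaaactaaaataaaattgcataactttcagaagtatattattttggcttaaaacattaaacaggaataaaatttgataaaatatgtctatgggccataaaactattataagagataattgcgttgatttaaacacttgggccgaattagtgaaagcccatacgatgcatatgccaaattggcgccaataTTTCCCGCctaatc
MCM4: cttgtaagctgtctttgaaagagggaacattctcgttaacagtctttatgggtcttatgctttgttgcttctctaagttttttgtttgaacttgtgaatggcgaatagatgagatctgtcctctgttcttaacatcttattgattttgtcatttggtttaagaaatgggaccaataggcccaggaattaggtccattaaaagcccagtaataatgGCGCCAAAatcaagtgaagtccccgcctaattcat
MCM6: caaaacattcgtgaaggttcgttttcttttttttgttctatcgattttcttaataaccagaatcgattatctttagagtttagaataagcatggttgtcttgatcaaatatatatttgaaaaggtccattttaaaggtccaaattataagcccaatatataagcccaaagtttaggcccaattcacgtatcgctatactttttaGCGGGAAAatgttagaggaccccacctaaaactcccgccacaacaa
The site began 14 bases before the annotated start in MCM2, 35 in MCM4 and 46 in MCM6. It was also in the promoters of ORC3, which fell, and of MCM5, MCM8, ORC2 and CYCD3;3, which were not among the genes that fell. The same comparison for the MSA core, again in capitals, is given by CYCB2;3 (chr1:7137829-7138078, minus strand) and CYCB1;3 (chr3:3627274-3627523, minus strand), which fell, and by CYCB1;1 (chr4:17624309-17624558, minus strand), the classical marker of cells about to divide, which had no peak.
CYCB2;3: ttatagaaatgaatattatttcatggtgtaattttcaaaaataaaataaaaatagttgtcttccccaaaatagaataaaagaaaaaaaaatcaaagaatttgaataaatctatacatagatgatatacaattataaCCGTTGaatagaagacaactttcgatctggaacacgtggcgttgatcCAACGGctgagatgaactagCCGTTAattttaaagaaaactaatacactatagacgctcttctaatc
CYCB1;3: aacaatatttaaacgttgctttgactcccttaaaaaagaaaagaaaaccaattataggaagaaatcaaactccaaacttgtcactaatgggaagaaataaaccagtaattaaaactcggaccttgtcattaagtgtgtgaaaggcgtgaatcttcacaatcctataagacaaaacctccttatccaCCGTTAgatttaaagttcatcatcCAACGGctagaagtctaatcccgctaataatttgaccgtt
CYCB1;1: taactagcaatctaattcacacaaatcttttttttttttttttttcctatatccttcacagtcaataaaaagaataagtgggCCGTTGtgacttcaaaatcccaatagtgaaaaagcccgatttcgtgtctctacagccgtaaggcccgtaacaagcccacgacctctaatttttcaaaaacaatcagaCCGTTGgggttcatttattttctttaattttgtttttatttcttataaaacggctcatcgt
The first of them held 3 cores and each of the others 2, all within 168 bases of the annotated start. The core was also in the promoters of the B type cyclins AT2G17620 and AT4G35620. Their log2 changes under stress were 0.23 and 0.30 and did not pass the threshold. Further cores were in the promoters of KRP1, KRP2, KRP7, ORC2 and ORC4, which were not among the genes that fell. The B type cyclin AT2G26760 fell and had no core.

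The deposited tables list peaks called in each library on its own. The headers count 6396842 to 9011630 fragments in a control library and 15974955 to 25714827 in a stress library, so depth and condition cannot be told apart here. The signal of a gene was the highest pileup, the number of fragments stacked at a summit, of any peak that overlaps the span from 1000 bp upstream of the annotated transcription start site (TSS) to the gene end, divided by the fragments of the library and multiplied by 1000000. This normalised pileup hides any change that all genes share. KRP4, outside the rule, was at 15.5 and 15.2 in control and 15.5 and 16.7 under stress. As a check of the tissue, 8 of 10 root marker genes had a peak in at least 2 libraries, and GL2 and COBL9 had none. Only 3 of the 10 had a peak in every library, and RHD6 and CASP1 had peaks only under stress. Of 8 shoot and flower markers, 7 had no peak in any library and AG had one in 1 control and 1 stress library.

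Peaks were found at 51 of the 62 members in at least 1 library, and at 37 (59.7%) in every library, against 54.3% of protein-coding genes. The 11 members without a peak in any library (17.7%, against 32.1% of protein-coding genes) were CYCA1;2, a cyclin of male meiosis, CYCA3;3, the mitotic cyclins CYCB1;1, CYCB1;2 and CYCB3;1, CYCD4;2, CYCD7;1, KRP5, the helicase subunit MCM6, and the ORC subunits ORC1A and ORC6. In a bulk sample, a mark carried by few cells and a low level of the mark in all cells cannot be told apart. A missing peak says only that the signal did not pass the p cutoff of the call. All families except CDKA, CDKC and ORC held members with a peak in some libraries only. The grid of pileups by gene and library shows these gaps as white cells.

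**Figure D1:**
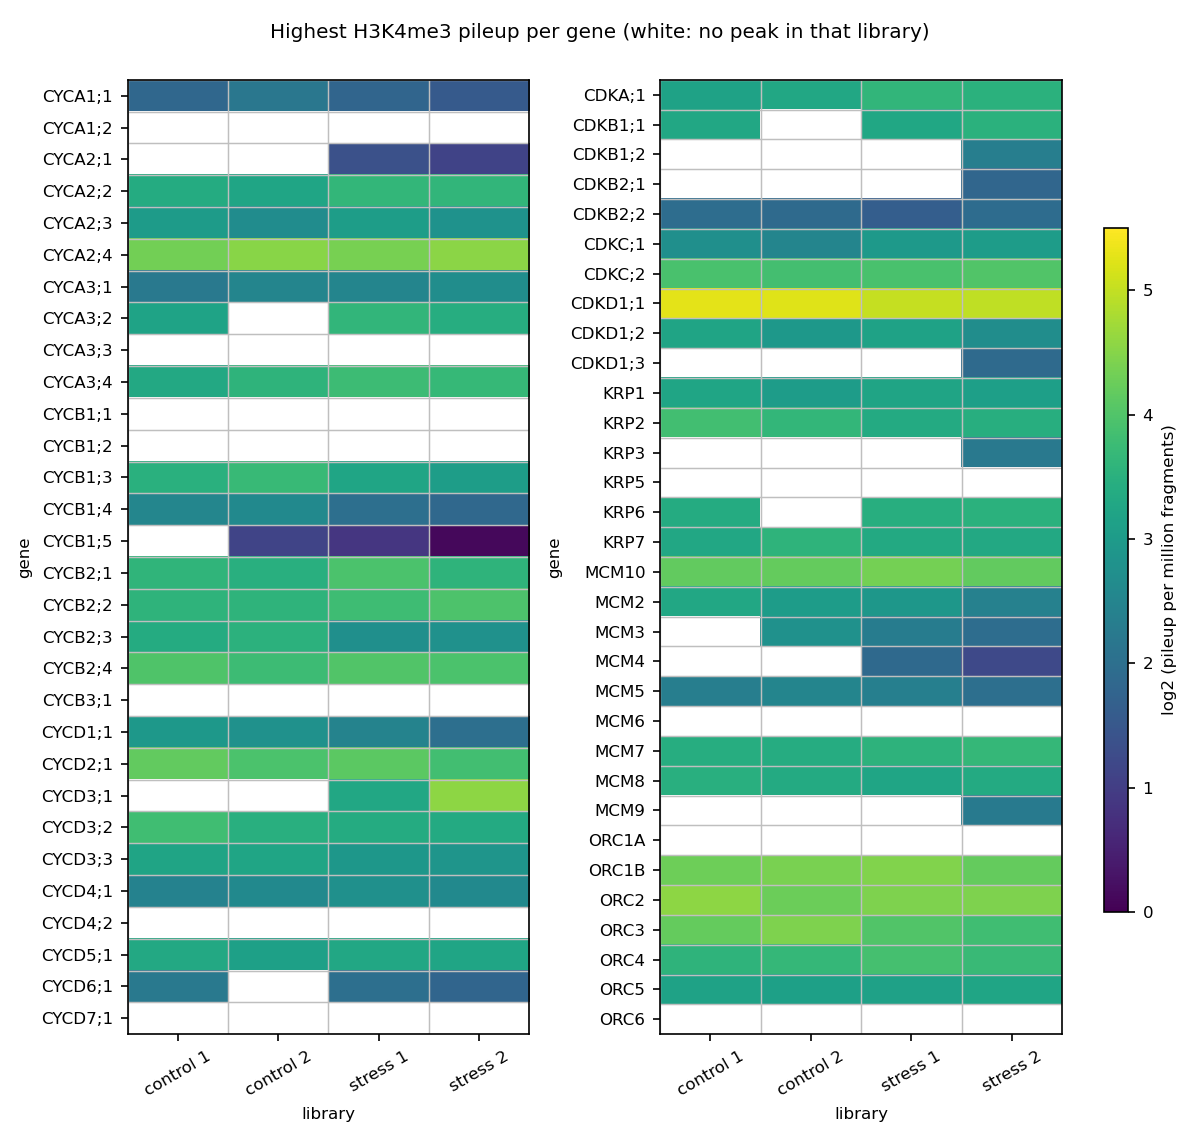
Highest H3K4me3 pileup of each of the 62 genes (rows) in the 2 control and 2 stress libraries (columns), as log2 of the normalised pileup. White cells mark libraries without a peak, so that 41 rows are filled in control replicate 1, 39 in control replicate 2, 46 in stress replicate 1 and 51 in stress replicate 2.

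Among the genes with a peak in every library, members carried a median control level of 10.7 in normalised pileup, against 13.1 over all such genes. The highest control signal was that of CDKD1;1, a CDK-activating kinase, with 39.0 and 37.4 in the control and 32.2 and 31.5 in the stress libraries. Its summits lay 1321 to 1410 bp upstream of its TSS, outside the gene. The lowest was that of CDKB2;2, one of the plant-specific mitotic kinases, with 3.88 and 3.75 in control and 3.13 and 3.85 under stress, so the groups overlapped. CDKA;1, the main kinase of the plant cycle, was at 8.99 and 9.85 in control and 12.3 and 11.5 under stress, which is above both control libraries but did not pass the test (adjusted p = 0.0726). The ORC family had the highest median among families of more than 2 measured genes, 19.9 over 5 genes, led by ORC2 with 23.7, 19.2, 21.6 and 21.5 in control 1, control 2, stress 1 and stress 2. The lowest ORC gene was ORC5 with 8.99, 8.75, 8.89 and 9.41, and in both the conditions overlapped. At 4 of the 5 ORC genes, all except ORC5, the region of the highest peak also held the TSS of another protein-coding gene. The family median therefore includes regions shared with neighbours. Among MCM genes the replisome factor MCM10 was highest with 18.2, 18.4, 20.5 and 18.2, from summits nearer to the TSS of a neighbour than to its own. MCM5, another subunit of the helicase, was lowest with 5.10, 5.63, 5.20 and 4.04, yet it had the highest fold enrichment of the pileup over the local background among MCM genes, 8.73, 8.56, 9.04 and 9.55, over a local background of 0.388 to 0.519 fragments per 1000000.

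The cyclins follow in the same order of libraries, control 1, control 2, stress 1 and stress 2. CYCA2;4 led the A type with 20.196, 23.136, 20.782 and 23.255, from summits 3593 to 4330 bp downstream of its TSS. These summits lay past its 3′ end, 182 to 919 bp from the TSS of AT1G80380. The lowest A type cyclin was CYCA1;1 with 3.55, 4.53, 3.44 and 2.96. In the B type, CYCB2;4 was at 15.868, 13.600, 16.025 and 15.283, and in the D type CYCD2;1 led with 18.0, 15.5, 17.4 and 14.3. The D type cyclin with the lowest control level was CYCD4;1 with 5.44, 6.10, 6.76 and 6.14. The stress libraries overlapped the control range in 3 of these 5 cyclins, lay below it in the lowest A type cyclin and above it in the lowest D type cyclin. Of the 3 KRP genes with a peak in every library, KRP2 was highest with 14.2, 12.5, 10.3 and 10.9, and KRP1 lowest with 9.43, 8.29, 9.20 and 8.59. The second CDKC kinase (AT5G64960) had 15.2, 14.4, 15.1 and 16.1, and CDKD1;2, another CDK-activating kinase, 9.21, 7.66, 9.01 and 6.46.

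The highest peak was not always that of the gene's own start. Of the 37 members with a peak in every library, 23 had all 4 summits within 500 bp of the TSS, 6 had all 4 more than 1000 bp away, and 10 had all 4 upstream. For 15 of the 51 members with any peak, the merged region of the highest peak also held the TSS of another protein-coding gene. At CYCA2;2 and ORC2 the summits lay 114 to 404 bp from the TSS of the upstream neighbours AT5G11310 and AGD7 (AT2G37550), and at CYCB2;1 and CYCB2;2 they lay 86 to 479 bp from that of a gene past the 3′ end (AT2G17630 and PSAT, AT4G35630). At MCM10 the summits lay 82 to 435 bp from the TSS of SYTA (AT2G20990) and 589 to 942 bp from its own. At CYCB2;4 they lay 27 to 191 bp from the TSS of FRS4 (AT1G76320) and 461 to 625 bp from its own. Within 500 bp of the TSS, 32 members had a peak in every library and 15 had none. The plot of summit distances by family shows the distant groups.

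**Figure D2:**
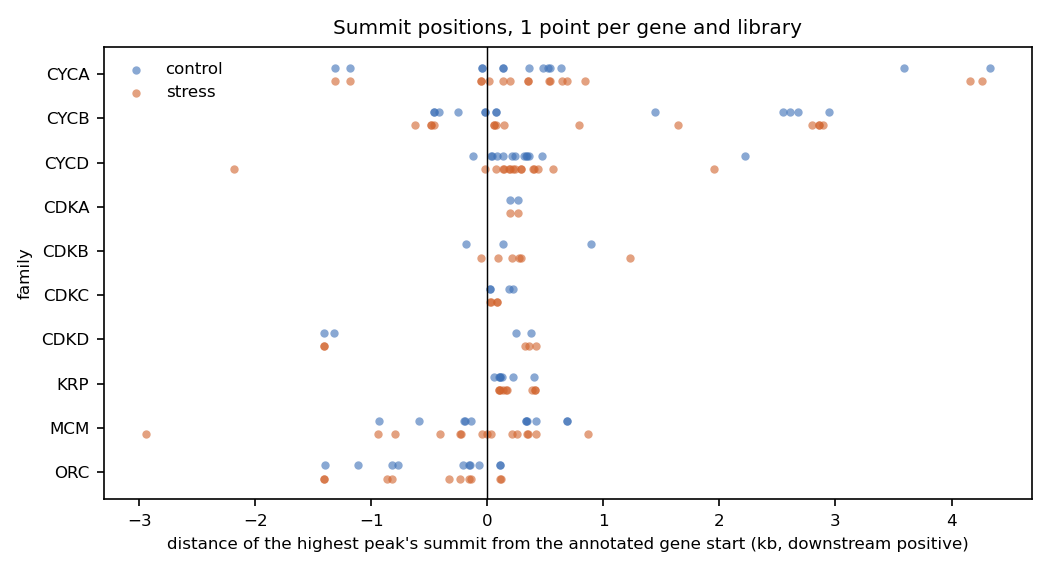
Distance of the highest peak's summit from the annotated gene start (kb, downstream positive), 1 point per gene and library, by family (rows) and condition (colour). Most points lie within 0.5 kb of the start, and separate groups beyond 1 kb belong to single genes such as an A type cyclin (3593 to 4330 bp) and a CDKD kinase (1321 to 1410 bp upstream).

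To ask whether osmotic stress changed the mark, log2 signals of the 16947 genes with a peak in every library were compared with limma. Under stress 6 members were lower and 0 higher: the mitotic cyclins CYCB2;3, CYCB1;4 and CYCB1;3, the G1 cyclin CYCD1;1, the helicase subunit MCM2 and the origin subunit ORC3. The 6 of 37 are 16.2%, and of all genes tested 11.0% were lower and 8.31% higher. At an unadjusted p under 0.05, 5 members were higher and 8 lower, and of the 16947 genes 2580 were higher and 3019 lower. The median log2 change of the 37 members was 0.01, and that of all genes -0.002. Both stress libraries lay above both control libraries in 9 members and below them in 12, against 30.3% and 30.5% of all genes. With 2 libraries against 2 an exact permutation test cannot go below 0.33, so the calls rest on the spread that limma pools over genes.

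CYCB2;3 (AT1G20610, chr1:7134659-7137828, minus strand) had 10.4 and 11.6 in normalised pileup in the control libraries and 6.70 and 6.92 in the stress libraries, with no overlap. Its mean fell from 11.0 ± 0.804 to 6.81 ± 0.158 (SD, n = 2), a log2 change of -0.69 ± 0.14 (SE, limma, adjusted p = 0.000528), and the peak covered its own TSS. CYCB1;4 (AT2G26760, chr2:11401118-11403433, plus strand) had 5.77 and 6.10 in control and 4.01 and 3.62 under stress, again over its own TSS. The log2 change was -0.64 ± 0.18 (SE, limma, adjusted p = 0.00892). CYCB1;3 (AT3G11520, chr3:3625286-3627273, minus strand) had 11.2 and 13.1 in control and 9.45 and 8.40 under stress, from a weak peak upstream of the TSS by 255 to 490 bp, with a log2 change of -0.45 ± 0.14 (SE, limma, adjusted p = 0.0184). These are 3 of the 6 measured B type cyclins. The others had log2 changes of 0.23 (CYCB2;1), 0.30 (CYCB2;2) and 0.09, none past the threshold, and at the first 12.1 and 11.1 in control stood beside 15.5 and 11.9 under stress. The summits of the first and second lie near a neighbour's TSS, and within 500 bp of its own TSS the second had a log2 change of -0.21 (limma, adjusted p = 0.323).

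CYCD1;1 (AT1G70210, chr1:26439556-26443007, plus strand) was at 7.66 and 6.88 in the control libraries and at 5.51 and 4.01 in the stress libraries, a log2 change of -0.63 ± 0.17 (SE, limma, adjusted p = 0.00785). The merged region also holds the TSS of AT1G70209. The other 5 measured D type cyclins did not pass, the nearest, at CYCD3;3, being 9.32, 9.38, 7.57 and 7.27 (log2 change -0.33, limma, adjusted p = 0.0975). MCM2 (AT1G44900, chr1:16970214-16974753, plus strand) was at 9.77 and 8.29 in control and at 7.51 and 5.33 under stress, without overlap, although the 2 stress libraries differed by almost as much as the groups. Its log2 change was -0.51 ± 0.16 (SE, limma, adjusted p = 0.0211). The other 4 measured MCM genes ranged from -0.23 at MCM5 to 0.20 at MCM7 and did not pass. The MCM7 values come from different places. Its summits lay 685 and 687 bp downstream of the TSS in control and 409 bp upstream in stress replicate 1. In stress replicate 2 the summit lay 2941 bp upstream, 148 bp from the TSS of AT4G02040. ORC3 (AT5G16690, chr5:5474366-5480067, plus strand) was at 18.3 and 21.6 in control and at 16.1 and 14.0 under stress, a log2 change of -0.40 ± 0.12 (SE, limma, adjusted p = 0.0181). Its summits lay 774 to 861 bp upstream, within 87 bp of the TSS of the divergent neighbour AT5G16680, so the value belongs to a region that both genes share. No measured A type cyclin, CDK or KRP gene passed in this fit. With each library divided by its median pileup 9 members were lower, the additional ones being KRP2 (limma, log2 change -0.38, adjusted p = 0.0181), CYCD3;3 (-0.38, adjusted p = 0.0320) and CDKD1;1 (-0.31, adjusted p = 0.0366), and the share of lower calls over all genes rose from 11.0% to 19.3%.

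Fold enrichment sets the pileup against the local background of the same library. It adds 1 to both unscaled counts, which at equal signal lowers the ratio more in the shallower control libraries. How far this shifts the changes was not tested. Fold enrichment gave another list. By this measure 3 members were higher, against 7.72% of all genes, and 1 was lower, against 6.07%. CDKC;1, a kinase of the transcription machinery, rose from 3.36 and 2.84 to 4.38 and 4.74 (log2 change 0.56, limma, adjusted p = 0.00875). CYCD4;1 rose from 2.70 and 2.98 to 3.99 and 3.76 (log2 change 0.45, limma, adjusted p = 0.0183), and CYCA2;2 from 5.63 and 4.92 to 6.85 and 6.82 (log2 change 0.38, limma, adjusted p = 0.0231), the latter from the peak near its upstream neighbour. CYCB1;3 was the only member lower by both measures, with a fold enrichment of 1.89 and 2.09 in control and 1.59 and 1.49 under stress (log2 change -0.37, limma, adjusted p = 0.0384). The local background, scaled in the same way, was lower in both stress than in both control libraries at the other 5 genes with a lower pileup. At the G1 cyclin it was 2.63 and 2.67 in control and 1.91 and 1.59 under stress, and the log2 change of the fold enrichment was -0.01 (limma, adjusted p = 0.978). At MCM2 it was 1.26, 1.30, 0.999 and 0.816, and the change turned to 0.05 (limma, adjusted p = 0.788). The other 3 had negative log2 changes of the fold enrichment that did not pass, -0.27 at CYCB1;4 (limma, adjusted p = 0.0746), -0.27 at CYCB2;3 (limma, adjusted p = 0.104) and -0.16 at ORC3 (limma, adjusted p = 0.235). The part of the background in these results was not tested beyond this side-by-side comparison. Without stress replicate 2, the deepest library, only CYCB2;3 of the 6 pileup calls passed (limma, log2 change -0.71, adjusted p = 0.00349), and without control replicate 2 the count was 3 (this gene, the G1 cyclin and MCM2).

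**Figure D3:**
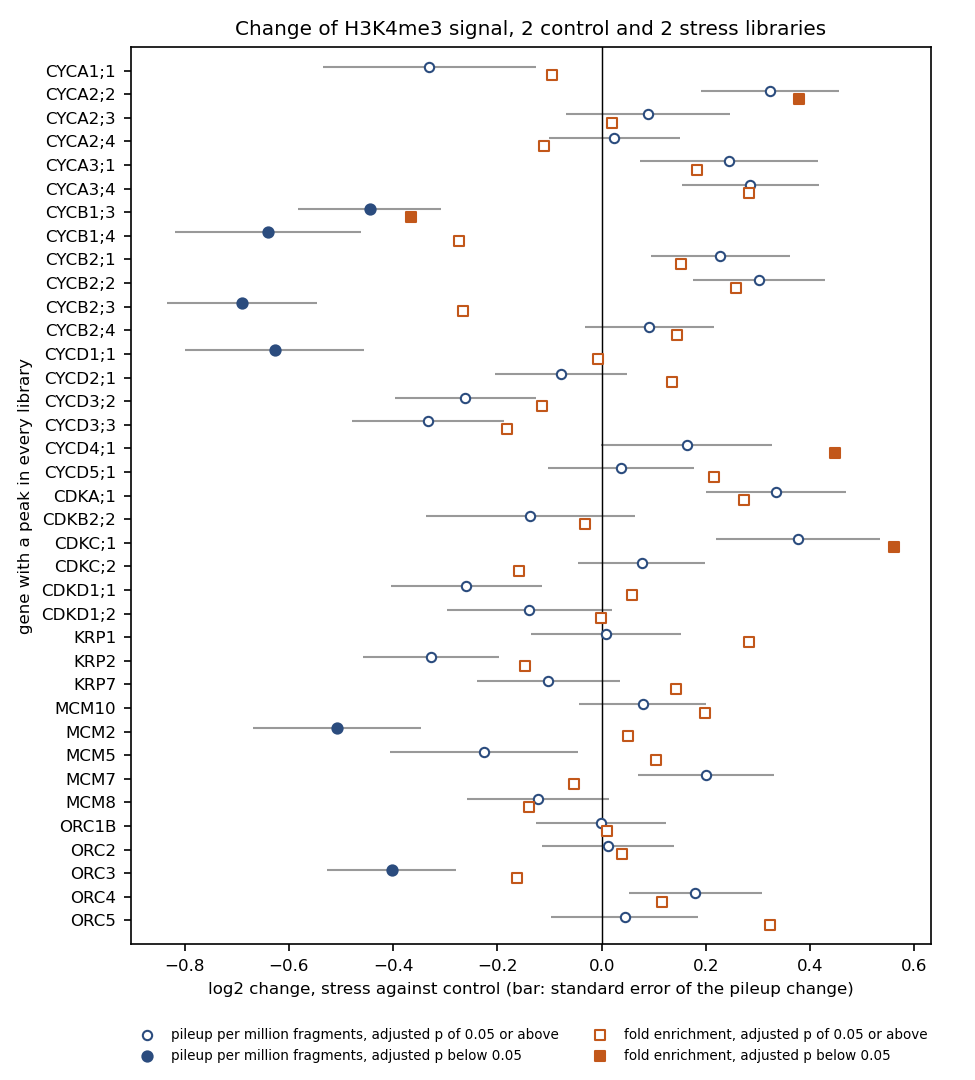
Log2 change under stress of the 37 genes with a peak in every library (rows), for the normalised pileup (circles, with the standard error as a bar) and for the fold enrichment (squares). Filled symbols have an adjusted p below 0.05 in limma, 6 circles left of 0, and 4 squares of which 1 is left of 0.

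**Figure D4:**
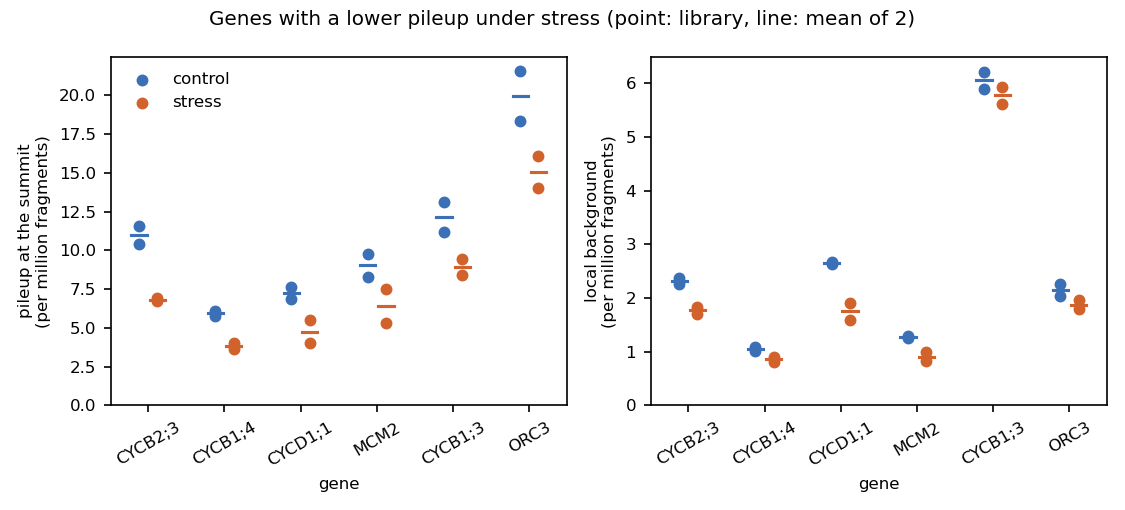
Pileup at the summit (left) and local background (right) of the 6 genes with a lower pileup under stress, both per 1000000 fragments (points, libraries, and lines, means of 2). Points of the 2 conditions do not overlap on the left for any of the 6 genes, and on the right they overlap at 1, the B type cyclin with the upstream peak.

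Where the presence of a peak separated the conditions, the peak was in the deeper stress libraries. The pattern of 2 stress peaks without a control peak was found at 3 members, against 4.66% of protein-coding genes, and the reverse at 0, against 0.164%. CYCA2;1 had small peaks of 2.57 and 2.14 in normalised pileup under stress, with summits 51 and 53 bp upstream of the TSS and a fold enrichment of 4.05 and 4.11. MCM4 had 3.69 and 2.33 under stress, and in these libraries its summits were 33 and 864 bp downstream of the TSS. At CYCD3;1, the cytokinin-responsive D type cyclin, values of 9.83 and 23.5 came from different places. In stress replicate 1 the summit lay 1957 bp downstream of the TSS. In stress replicate 2 it lay 2185 bp upstream, 379 bp from the TSS of AT4G34150. With merged regions in place of genes, this cyclin had values in both conditions. Its log2 change was then -0.27 (limma) and did not pass the threshold. The stress pattern here is one of peaks that reach the gene's span, so the 23.5 does not show a signal new under stress. When only peaks that would pass the same p cutoff at the smallest depth of 6396842 fragments were kept, 2 members, without MCM4, had the stress pattern, against 2.98% of protein-coding genes, and 1 of the B type cyclins with a lower pileup (AT3G11520) had control peaks only, against 0.503%. At equal depth 35 members had a peak in every library, against 53.5%, and 16 in none, against 34.9%.

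Stress replicate 2 alone had a peak at 5 members: the mitotic kinases CDKB1;2 with 5.13 and CDKB2;1 with 3.50, the CDK-activating kinase CDKD1;3 with 3.73, the inhibitor KRP3 with 4.71 and MCM9, a relative of the helicase subunits, with 4.82. With this library left out, 25.8% of members and 34.5% of protein-coding genes had no peak, against 17.7% and 32.1% with all libraries. In control replicate 2, the shallowest library, 4 members lacked a peak that the other libraries had. At these, CDKB1;1 was at 9.88 in control 1 and 9.64 and 11.4 under stress, CYCA3;2 at 9.10, 12.3 and 10.8, and the other two were CYCD6;1 at 4.66, 4.01 and 3.46 and KRP6 at 10.4, 11.0 and 11.5. Both stress values lay above the control value in the A type cyclin and in KRP6, below it in the D type cyclin and on either side of it in the CDKB kinase. The summit of the D type cyclin was 2223 bp downstream of the TSS in control 1 and 199 and 404 bp downstream under stress, so its values come from different places. In control replicate 1, 2 members lacked a peak that the other libraries had, with MCM3 at 6.88 in control 2 and 4.95 and 3.89 under stress, and CYCB1;5 at 2.19, 1.82 and 1.09. Both stress values lay below the control value in both. With all libraries, 59.7% of members and 54.3% of protein-coding genes had a peak in every library. The shares were 66.1% and 58.1% with control replicate 2 left out, and 62.9% and 55.0% with control replicate 1 left out. In a test that also took genes with a peak in at least 1 library of each condition, MCM3 was a seventh member with a lower pileup (log2 change -0.65, limma, adjusted p = 0.0389).

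The length covered by peaks was longer in both stress than in both control libraries at 24 of 37 members, against 70.1% of all genes, and shorter at 3, against 3.93%. The 24 of 37 are 64.9%, below the share of all genes. The deeper libraries also covered more of the genome. Lower pileup and longer coverage occurred together at CYCB1;4, with 530 and 554 bp covered in control and 1196 and 1827 bp under stress. They also did at CYCB2;3, with 1546, 820, 1753 and 1742 bp, and at ORC3, with 800, 738, 1291 and 1393 bp. MCM2, in contrast, had 886, 948, 805 and 964 bp, with overlapping groups. CYCA1;1 went from 966 and 677 to 1516 and 2197 bp. The 3 shorter ones, a CDKD, a CYCB and ORC2, have their highest peaks near the TSS of a neighbour or upstream of the gene. Within 500 bp of the TSS, where each gene contributes the same window, 19 of 32 members (59.4%) were longer in both stress libraries, against 36.9% of 15036 genes. A window that is already covered cannot lengthen. Over the whole span the median covered length in control was 615.5 bp in members and 823.5 bp in all genes. The part of this starting length in the contrast was not tested.

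Genes that work with these regulators were described from a separate list of E2F and retinoblastoma factors, licensing and replication genes, inhibitors of the SIM and SMR family, activators and subunits of the anaphase-promoting complex (APC), MYB3R factors and mitotic kinases. Of its 60 symbols, 50 matched 1 gene, 32 of these had a peak in every library and 5 in none. Among the 32, 3 were higher under stress (8.31% of all genes were) and 4 lower (11.0% of all genes were), and their median log2 change was -0.15. RBR1, the retinoblastoma protein that holds E2F factors in check, was at 33.3 and 37.2 in the control libraries and at 25.9 and 21.9 in the stress libraries (log2 change -0.56, limma, adjusted p = 0.00273). It was lower by fold enrichment too (log2 change -0.38, limma, adjusted p = 0.0189). ICU2, the catalytic subunit of DNA polymerase alpha, was at 7.99, 7.35, 4.95 and 4.82 (log2 change -0.65, limma, adjusted p = 0.00362), and its fold enrichment had a log2 change of -0.05.

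Of the 7 measured subunits and activators of the APC, the ubiquitin ligase that destroys mitotic cyclins, 2 were lower, 1 was higher and 4 did not pass (APC4, APC6, HBT and CCS52A2, limma, adjusted p = 0.454 to 0.922). CCS52B, an activator (FZR3 in the annotation), was at 23.0, 19.9, 15.5 and 14.5 (log2 change -0.51, limma, adjusted p = 0.00253), and the subunit APC11 at 19.4, 21.4, 15.1 and 14.3 (log2 change -0.47, limma, adjusted p = 0.00454). CCS52A1, an activator that promotes endoreduplication (FZR2 in the annotation), was higher, with 9.77 and 8.91 in control and 12.9 and 11.6 under stress (log2 change 0.39, limma, adjusted p = 0.0343). The CDK inhibitor SMR1 (LGO) rose from 6.10 and 8.44 to 10.0 and 10.2 (log2 change 0.49, limma, adjusted p = 0.0188), and DPB, a partner of E2F factors, from 9.65 and 11.7 to 14.3 and 13.8 (log2 change 0.40, limma, adjusted p = 0.0256). None of CCS52A1, SMR1 and DPB passed without stress replicate 1 (limma, adjusted p = 0.211, 0.0545 and 0.0917) or without stress replicate 2 (0.0703, 0.106 and 0.0854). SMR1 and DPB did not pass without control replicate 1 either (0.344 and 0.292), nor CCS52A1 without control replicate 2 (0.181). Without control replicate 2 RBR1 and APC11 did not (limma, adjusted p = 0.134 and 0.0845). CCS52B did not pass without control replicate 1 (limma, adjusted p = 0.0803), whereas ICU2 passed without each of the 4 libraries. By fold enrichment the changes of CCS52A1 and CCS52B passed again and those of SMR1, DPB and APC11 did not. CDC6, which loads the helicase together with ORC, had peaks only under stress, at 7.01 and 6.88, as did the atypical E2F factor DEL1, at 9.45 and 8.87, against 4.66% of protein-coding genes. The adjacent APC8 has the same stress values as DEL1 and a value of 21.3 in control replicate 1, so that 1 peak is counted at both genes.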

How the data were processed

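Members and gene lists were chosen with earlier results of these data known. The authors trimmed reads with fastp 0.19.7 and aligned them with Bowtie2 2.3.5.1 to TAIR10 (submitters' processing notes), and called peaks per library with MACS 2.2.7.1 (p cutoff 1e-05, no control library, duplicates kept, local background over 10000 bp, effective genome size 2700000000 bp). Each deposited peak has a pileup (signal, not scaled to depth), a fold enrichment (ratio) and its p-value and q-value as −log10. Recomputed −log10 p-values lay within 0.00119 of the deposited ones at 56845 peaks. Genes came from TAIR10.1, nuclear chromosomes only, and 0 columns belonged to other samples.

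Pileup was scaled per 1000000 fragments of the headers, and log2 values of the 16947 genes with a peak in every library entered limma 3.58.1 under R 4.3.3 (lmFit, eBayes with trend), with Benjamini-Hochberg adjustment over all of them and a threshold of 0.05. Samples were grouped by the treatment label. On simulated data of the same size the test recovered 100% of 200 genes changed by 1 on the log2 scale (17 false calls), 52% of those changed by 0.5, and called 0 without change. Named were members past the threshold, members without a peak in every library, the highest and lowest control signal of each family and at most 8 list genes past the threshold. Other genes were named after their values were seen, to give a neighbour or a contrast. Alternatives replaced the measure, scaling, peak filters, span, test settings or left out a library. Python 3.11.15 with pandas 2.3.3 did the rest. The symbol APC1 belongs to a phosphate carrier in the annotation and was left out.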

Additional observations from a re-analysis of the deposited data

How the results depend on the processing

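The main counts were 6 lower and 0 higher members and 1862 lower and 1408 higher genes. Fold enrichment in place of pileup gave 1 and 3 members, a member median log2 change of 0.0509, and 1028 and 1309 genes. Division of every library by its own median gave 9 lower members, a member median of -0.0401 and 3278 lower genes beside 1388 higher, with the median of all genes at -0.05. Peaks with a fold enrichment no less than 4 left 3 lower members, 830 lower and 494 higher genes, 13 members with a peak in every library, 37 with none, 5 stress-only, 2 control-only and 8 longer. Peaks with a −log10 q no less than 10 left 18 members with none and 7 stress-only. The member median was -0.0904 within 500 bp of the TSS and -0.103 with the summit inside the span, where 5 were stress-only. Equal depth gave 1 control-only member. Leaving out a library gave 1 to 7 lower members, 810 to 1123 higher and 1023 to 2746 lower genes, member medians of -0.0574 to 0.0349, and 3 to 8 stress-only members.

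Signs of the log2 change turned by fold enrichment at MCM2 (0.0509), CDKC;2 (-0.159), CDKD1;1 (0.0574), CYCA2;4 (-0.11), CYCD2;1 (0.134), MCM5 (0.104), MCM7 (-0.0526), KRP7 (0.143) and ORC1B (0.0097), and after division by the median at CYCA2;4 (-0.0244), KRP1 (-0.0401), ORC2 (-0.0365), ORC5 (-0.00457) and CYCD5;1 (-0.0111). That of CYCB2;2 turned within 500 bp of the TSS and with the summit inside the span (-0.215 in both). Ranges with a library left out crossed 0 at CDKB2;2 (-0.286 to 0.0123), CDKD1;2 (-0.38 to 0.102), CYCA2;4 (-0.0737 to 0.122), CYCB2;4 (-0.02 to 0.202), CYCD2;1 (-0.217 to 0.0612), KRP1 (-0.085 to 0.102), MCM10 (-0.00661 to 0.164) and ORC2 (-0.14 to 0.165), and at CYCA2;3, CYCD5;1, KRP7 and ORC1B. Of these genes only MCM2 had passed the threshold. The cause was not tested, nor was the part played by the constant that fold enrichment adds to unscaled counts.

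Replicate numbers did not pair the samples (correlation of deviations -0.00346), and a replicate block gave 6 lower and 0 higher members and 1757 and 1407 genes. CYCB2;3 passed in each of the 4 fits with a library left out. A pileup is known only where a peak was called, so low levels in the shallow control libraries are not measured.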
